A study of Dahlia pinnata with 6 samples.

Results

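miR396 is the most abundant microRNA name in small RNA counts from petals of the bicolor dahlia Yuino, and its values are described here in each library. It was found as the row named exactly miR396, 1 row of 47083 and 1 of the 116 rows that carry microRNA names. The row was selected on its read counts, the highest of the microRNA names, and its small difference between petal parts was already known, so share, rank and ratios are descriptions and are not tested. No other row name starts with miR396. The microRNA names have at most 6 characters, so the row may sum several members of the family, and a longer family number that starts the same way could have been joined to it.

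The family is a conserved plant microRNA that guides cleavage of transcripts of GROWTH-REGULATING FACTOR (GRF) genes. GRF proteins are transcription factors that act with GRF-INTERACTING FACTOR co-activators to sustain cell proliferation in growing leaves and floral organs. In Arabidopsis, extra miR396 lowers GRF levels and gives small, narrow leaves, and the family accumulates as cells leave proliferation. The contigs of the table carry no gene names, so GRF transcripts, and petal marker genes that would check the tissue label, were not analysed here.

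Libraries came from the pigmented (red) and unpigmented (white) regions dissected from petals of the same genotype, labelled Dahlia pinnata and named D. variabilis in the growth notes, from plants in a greenhouse at 24 °C with no treatment named. There were 3 red and 3 white libraries, and the labels name no plant, so the p-values speak only of how much these libraries vary, which may be technical. The study asked whether flavonoids, the pigment compounds of the red part, hold back the Dicer-like enzyme DCL4 in making 21-nt siRNAs. MicroRNAs are cut mainly by another Dicer-like enzyme, DCL1, in plants.

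The table held 3277753 to 3662222 reads per library, of which 124111 to 174240 fell on microRNA names. Reads with a hyphen in the name or named bantam, the style of animal microRNAs, took 0.821% to 1.24% of the microRNA reads. That share is not a bound on names outside the plant family list used below. It leaves out names without a hyphen, such as miR647, which took 0.544% to 5.44% of the microRNA reads, the highest in white replicate 2. Of 13 animal microRNA names or name groups looked for, 5 had no row, and the 17 rows found summed to 35 to 131 reads in red and 20 to 42 in white. Since names have at most 6 characters, miR-122, miR-124 and miR-133 could have no row, and their absence carries no information. Shortened forms of them could lie in rows such as miR-12 or miR-13, which were not counted. Every row of the table has a read in red replicate 1, against 11093 to 12808 rows at 0 in the others. That may come from how rows were kept and not from the library, which was not tested. If rows without a read there were dropped, the column totals of the other libraries lack their reads on such rows. Red replicate 1 also held 694 reads named miR-27, against at most 21 in any other library. At 56042 to 64827 reads per library, miR396 is far above these counts, and values without red replicate 1 stand beside several of the results that it moves.

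miR396 held first place among the microRNA names in all 6 libraries. Its level against all tabulated reads overlapped between the parts with all 6 libraries. It had 59384, 63024 and 64827 reads in red replicates 1, 2 and 3 and 60974, 57770 and 56042 reads in white replicates 1, 2 and 3. Scaled to column totals as CPM (reads per 1000000 tabulated reads) these were 16215, 17927 and 19778 in red and 17361, 17146 and 16459.9 in white. On this scale 19.0% of the tested rows had parts that did not overlap, and miR396 was not among them: the white values lay inside the range of the red ones, and the lowest and the highest library were both red. Without red replicate 1, the lowest, the red values were 17927 and 19778 CPM and the white ones at most 17361 CPM, so the parts did not overlap. Leaving out the lowest red library favours that direction, and the share of all tested rows so separated was not computed. With TMM scaling (below) the parts overlapped also without it, at 18320 to 18946 CPM in red and 16668 to 20842 CPM in white. Its share was 1.80% ± 0.18 in the red part and 1.70% ± 0.047 in the white part (SD, n = 3 each), with a red mean of 1.89% ± 0.13 without red replicate 1 (SD, n = 2). The exact binomial 95% interval of a single library's share was narrow, from 1.61% to 1.63% in red replicate 1 for example, and covers counting error only. Libraries of the red part therefore differed from each other by far more than counting error. In dissected tissue, fewer cells of a type and less RNA per cell cannot be told apart.

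Against microRNA reads alone, white libraries stood higher. miR396 made up 34.1%, 39.8% and 39.6% of the microRNA reads in red replicates 1, 2 and 3. In white replicates 1, 2 and 3 it made up 46.4%, 44.3% and 45.2%. Each white library was above each red one, and red replicate 1 was the lowest. The means were 37.8% ± 3.2 for the red part and 45.3% ± 1.1 for the white part (SD, n = 3 each), and 39.7% ± 0.14 for red without red replicate 1 (SD, n = 2). With this scaling 13.9% of all tested rows, and 11.8% of the 34 tested microRNAs, had every white library above every red one, so such a separation is not particular to miR396. With all 6 libraries the parts thus overlap on column totals and separate on microRNA totals. Without red replicate 1 they separate on both, with white lower on the former and higher on the latter. No share of all tested rows was computed for that set of libraries.

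The difference between both scales followed the 2 microRNAs next in rank. miR159, a repressor of GAMYB-like genes, had 13792, 12467 and 12400 CPM on column totals in red and 8076, 8110 and 7725 CPM in white. miR166, which targets class III HD-ZIP genes of organ polarity, stood at 9831, 7216 and 9386 CPM in red and 4921, 4617 and 5286 CPM in white. For both, every red library was above every white one, as it was for 14.3% of all tested rows. Their summed share of all reads was 2.17% ± 0.20 in the red part and 1.29% ± 0.016 in the white part (SD, n = 3 each), which is -0.879 percentage points, white minus red. miR396 differed by -0.0984 points, and all other microRNA names together by -0.0250 points, from 0.787% ± 0.049 to 0.762% ± 0.11. The share of all microRNA names together was 4.75% ± 0.24 for the red part and 3.75% ± 0.11 for the white part, and most of that gap thus lay in miR159 and miR166.

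With these 2 names removed from the denominator, the miR396 share no longer separated the parts. It was 67.7%, 70.6% and 70.2% in red and 71.2%, 66.0% and 70.2% in white. The means were 69.5% ± 1.6 and 69.1% ± 2.8 (SD, n = 3 each), and white was higher in 5 of the 9 possible red and white pairings. White replicate 2, the lowest, held 7093 reads of miR647, against 714 to 1308 in the other libraries. These reads stay in the denominator and so lower the miR396 share of white replicate 2. The means and pairings above thus depend on that row, and shares without miR647 were not computed.

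**Figure D1:**
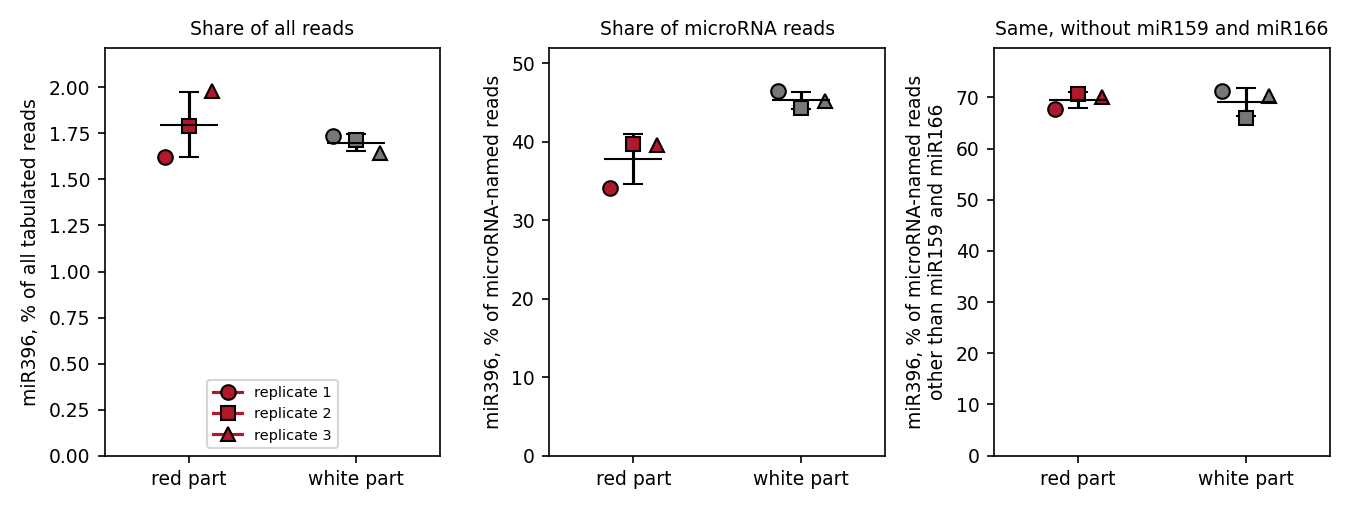
Share of miR396 reads in percent for each library of the red and the white part, as a share of all tabulated reads (left), of microRNA-named reads (middle) and of microRNA-named reads other than miR159 and miR166 (right). Points are libraries with the marker giving the replicate number, bars are the mean and SD of 3 libraries, and the parts separate in the middle panel, at 34.1% to 39.8% in red and 44.3% to 46.4% in white.

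**Figure D2:**
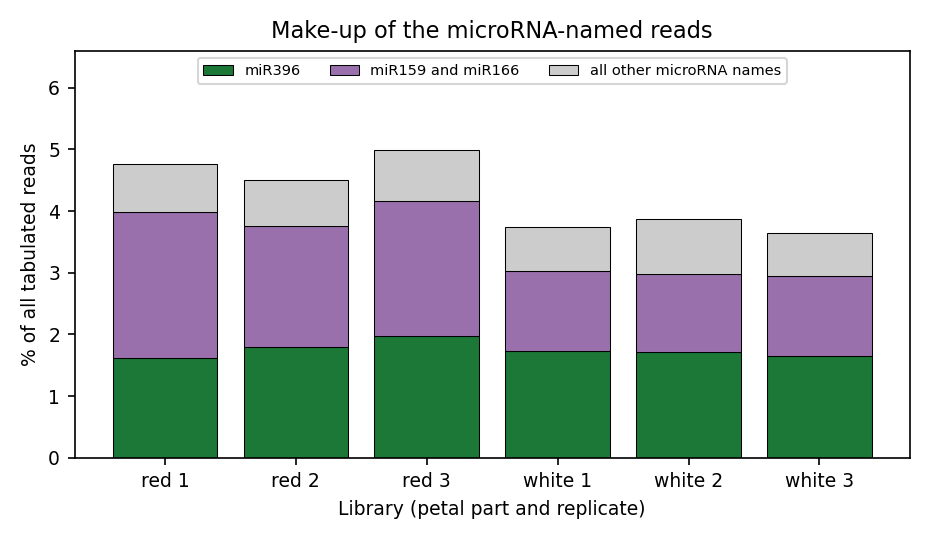
Reads of miR396, of miR159 with miR166, and of all other microRNA names, stacked as percent of all tabulated reads in each of the 6 libraries. The miR396 segment stays between 1.62% and 1.98%, while the segment of miR159 and miR166 spans 1.97% to 2.36% in red and 1.27% to 1.30% in white.

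The order of the leading microRNAs was the same in every library down to the third place. miR396 came before miR159 and miR159 before miR166 in all 6 libraries, and these 3 names held 83.5% ± 0.28 of the microRNA reads of the red part and 79.7% ± 2.2 of those of the white part (SD, n = 3 each). Reads are compared here between mature microRNAs of similar length, with no correction for length or for the ligation preference of library kits, whose part in the order was not tested. The lead of miR396 over miR159 was narrowest in red replicate 1, at 1.18 reads per read of miR159. It was 1.44 and 1.59 in red replicates 2 and 3, and 2.15, 2.11 and 2.13 in white replicates 1, 2 and 3. This ratio needs no scaling, and each white library exceeded each red one, with means of 1.40 ± 0.21 and 2.13 ± 0.018 (SD, n = 3 each), and a red mean of 1.52 ± 0.11 without red replicate 1 (SD, n = 2). Against miR166 the ratio was 2.08 ± 0.42 for the red part and 3.45 ± 0.31 for the white part, again without overlap between the parts. Its red mean was 2.30 ± 0.27 without red replicate 1 (SD, n = 2). On column totals miR159 and miR166 were themselves lower in every white library, so a row that changed little would also have higher ratios to them in white. The share of rows whose ratios separate in this way was not computed. These ratios are given as descriptions and were not tested.

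Behind the third place the levels dropped steeply and the order was not stable. miR162, which targets DCL1 itself, made up 2.91% ± 0.61 of the microRNA reads of the red part and 4.06% ± 0.86 of the white part (SD, n = 3 each). miR858, which targets MYB genes, some of them activators of flavonoid synthesis, made up 3.29% ± 0.98 in red and 3.29% ± 0.24 in white. Within libraries, miR162 was above miR858 in white replicates 1, 2 and 3 and in red replicate 2, and below it in red replicates 1 and 3. In white replicate 2 miR647, at 5.44%, stood above both. The sum of squares of the shares corresponded to 3.91 ± 0.14 equally abundant microRNAs for red and 3.66 ± 0.16 for white (inverse Simpson index, SD, n = 3 each).

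Among all rows, contigs included, miR396 had rank 4 in each red library and rank 7 in each white one. The 3 contigs above it in red belong to 2 Trinity genes and the 6 above it in white to 4, and they took 48.0% ± 1.8 of a red library and 54.6% ± 4.4 of a white one (SD, n = 3 each). Contigs gather reads along their length and a microRNA row does not, so this rank is one of read counts and not of levels per length. The lower rank in white came with 3 more contigs above miR396. Its own reads overlapped between the parts with all libraries. Without red replicate 1, the lowest of the red part, they were lower in every white library, at most 60974 against 63024 and 64827. No share of all tested rows was computed for that.

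In the fit over all tested rows miR396 did not pass the test. The parts were set against each other with edgeR's quasi-likelihood test and TMM scaling, which sets the libraries level on the bulk of their rows. TMM-scaled counts of miR396 were 15311, 18320 and 18946 CPM in red and 18108, 20842 and 16668 CPM in white. The parts overlapped, with a red library lowest and white replicate 2 highest. The log2 fold change of white over red was 0.081 ± 0.13 SE (edgeR adjusted p = 0.86), with a 95% interval from -0.21 to 0.37. As a ratio of white to red this interval runs from 0.867 to 1.29, so larger changes than these lie outside it and smaller ones in either direction were not resolved by 6 libraries. Without red replicate 1 the log2 fold change was -0.013 ± 0.13 SE (edgeR adjusted p = 0.99). A p above the threshold does not show that the parts are alike.

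Of the 7001 tested rows, 1.06% passed at an adjusted p under 0.05, 37 higher and 37 lower in white (0.528% each way), so a row that does not pass is the rule in this comparison. With the replicate number as a block 338 rows passed, and the log2 fold change of miR396 stayed at 0.081 ± 0.13 SE (edgeR adjusted p = 0.82). The calls split into 45 higher and 108 lower with library totals, and into 116 higher and 19 lower with scaling to the microRNA total. Leaving out 1 library moved the number of calls to 46 without red replicate 1, 176 without red replicate 2, 50 without white replicate 2 and 35 without white replicate 3, and none of these fits called miR396 (edgeR adjusted p from 0.79 to 0.99 over the 6 libraries left out in turn).

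The sign of the miR396 difference depended on the scaling. With library totals the log2 fold change was -0.081 ± 0.16 SE (edgeR adjusted p = 0.87). With scaling to the microRNA total it was 0.26 ± 0.18 SE (edgeR adjusted p = 0.56), and that total holds the reads of miR396 itself. With the microRNA total less miR396, a scaling added after seeing the data, it was 0.44 ± 0.19 SE, with a 95% interval from 0.052 to 0.83 and an unadjusted p of 0.028, and it did not pass over all rows (edgeR adjusted p = 0.17). With miR159 and miR166 also left out of that total, likewise added after seeing the data, it was -0.018 ± 0.29 SE (edgeR adjusted p = 1.00). A scaling shifts all rows together: the median row changed by -0.0098 on the log2 scale with TMM, -0.16 with library totals and 0.18 with the microRNA total. Relative to that median miR396 lay between 0.075 and 0.091 higher under these 5 scalings, a narrow range by construction. With TMM and 1 library left out this offset ran from -0.018 (without red replicate 1) to 0.15 (without white replicate 3).

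**Figure D3:**
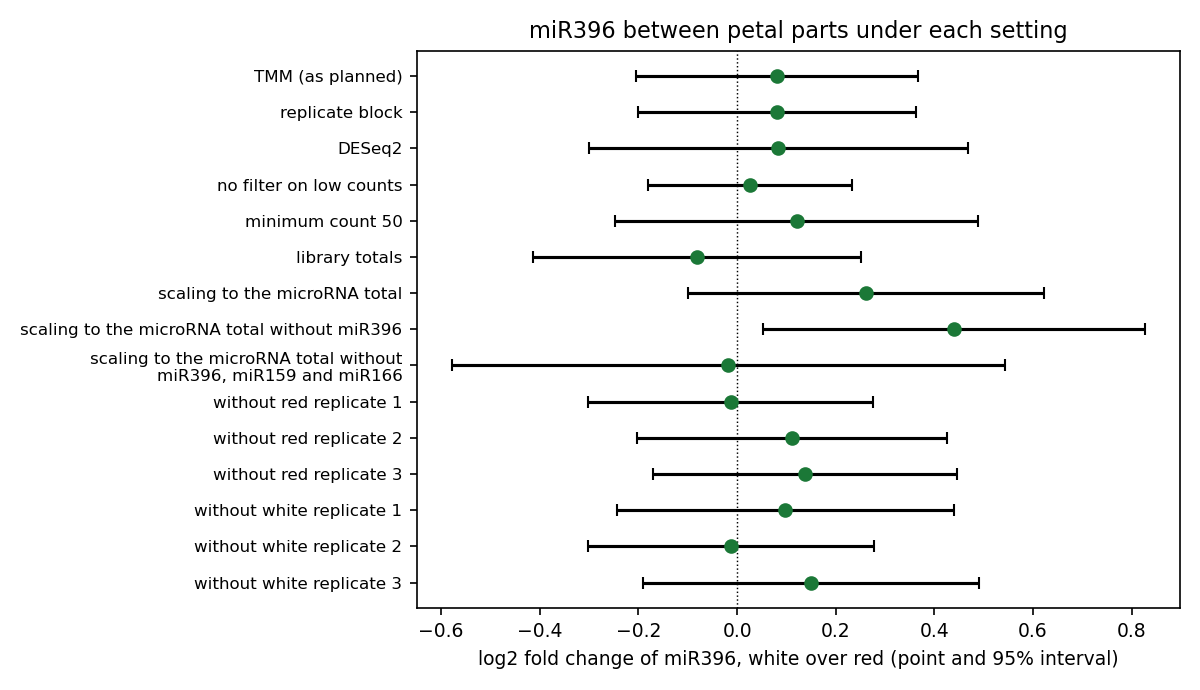
Log2 fold change of miR396, white over red, with its 95% interval under the planned TMM fit and each alternative, including each library left out in turn. Points lie between -0.081 (library totals) and 0.44 (microRNA total without miR396), and the latter is the interval that lies above 0.

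Whether same-numbered libraries shared a direction for miR396 depended on the scale. On column totals the log2 difference, white minus red, was 0.098, -0.064 and -0.26 for replicate numbers 1, 2 and 3. With TMM scaling it was 0.24, 0.19 and -0.18. With microRNA totals it was 0.45, 0.16 and 0.19, all higher in white. The largest of these, for number 1, includes red replicate 1.

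The spread of miR396 between libraries was small next to that of most tested microRNAs, which have fewer reads, and large next to counting error. On column totals its SD within a part, pooled over both parts, was 0.105 on the log2 scale, rank 3 from the lowest among the 34 tested microRNAs, whose median was 0.394. Lower values were those of miR159, at 0.067, and of miR168, at 0.078. By part, the SD of miR396 was 0.14 in red and 0.040 in white. Counting error alone would give 0.0059 at its mean of 60337 reads. For rows with few reads it is far larger, at 0.37 for miR160 and 0.39 for miR172, so the rank and the median compare unlike rows. Of the microRNAs next in reads, miR159 lay below miR396 and miR166, at 0.18, above it. With TMM scaling the pooled SD was 0.164, rank 6 from the lowest, and with microRNA totals 0.0928, rank 3.

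**Figure D4:**
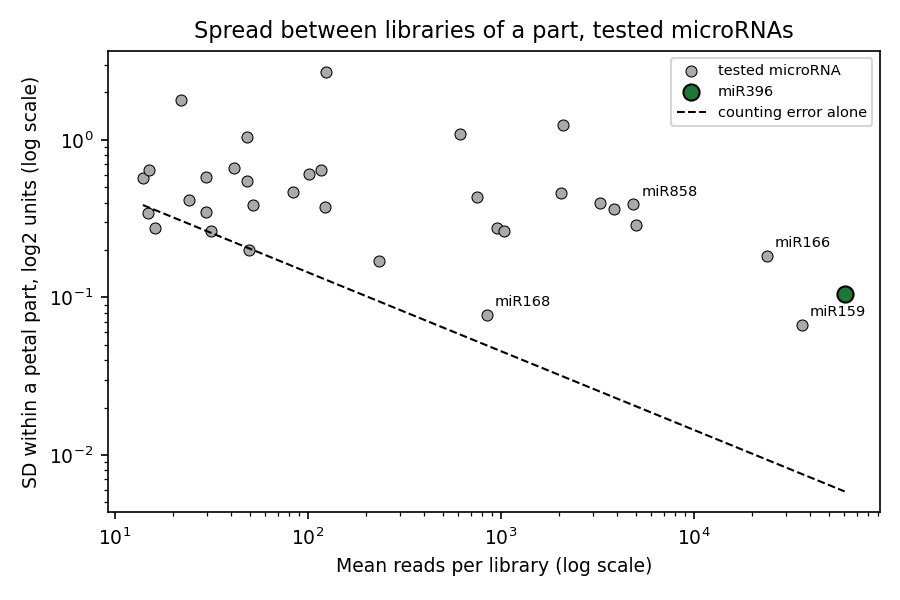
SD within a petal part (pooled over red and white, log2 units, column totals) against mean reads per library for the 34 tested microRNAs, both on log axes, with a dashed line for counting error alone. miR396, at 60337 reads and an SD of 0.105, has rank 3 from the lowest SD and lies far above the line.

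The microRNAs whose values moved most like those of miR396 were miR168, miR-24 and miR162. Likeness was taken as the root mean square difference in log2 CPM on column totals over the 6 libraries, after removal of each row's mean, and was 0.215, 0.222 and 0.229 for these rows. miR168 targets AGO1, the main effector protein of plant microRNAs. It stood at 278.2, 269.4 and 306.0 CPM in red and 195.0, 209.2 and 207.4 CPM in white. Every white library of miR168 was below every red one, as it was for 14.3% of all tested rows, while the parts overlapped for miR396. By this measure a row with a wide spread over the libraries cannot be near to miR396, whatever its direction.

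miR396 was set beside microRNAs known to act in organ growth and polarity, a list of 11 chosen with earlier results known. All 11 had a row and 10 were tested. By edgeR's test 1 passed as lower in white, miR166, and 0 as higher, against 0.528% of all tested rows each way. At an unadjusted p under 0.05 there were 4 lower and 0 higher, against 6.28% and 6.26% of all tested rows. DESeq2 called 1 lower and 0 higher, with 3 adjusted p-values of the list undefined, against 1.6% and 1.96% of the 3064 rows with a defined one. The median log2 fold change of the 10 was -0.59, with 7 below 0 and 3 above, against a median of -0.0098 over all tested rows. Other microRNAs lay lower too, so a shift below 0 is not particular to this list. The median was -0.18 over all tested microRNAs. Over the 22 tested plant families, which include these 10, it was -0.28, with 15 below 0 and 7 above. With the replicate block 3 passed as lower (miR159, miR164 and miR166) and 1 as higher (miR167), against 2.59% and 2.24% of all tested rows.

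For miR166 the log2 fold change was -0.67 ± 0.12 SE, with an adjusted p of 0.022 by edgeR. For miR159 it was -0.53 ± 0.12 SE, with an adjusted p of 0.067 by edgeR. Without red replicate 1, white replicate 1 or white replicate 3 miR166 did not pass (edgeR adjusted p = 0.058, 0.084 and 0.11), nor did it with a minimum count of 50 (0.057), with scaling to the microRNA total (0.22) or with that total less miR396 (0.37) or less miR396, miR159 and miR166 (0.19). The 95% interval of miR166 ran from -0.94 to -0.40 and that of miR159 from -0.80 to -0.26, and that of miR396 began at -0.21. miR319, which targets TCP genes whose products raise miR396 in Arabidopsis, stood at 176, 99 and 136 reads in red and 34, 95 and 69 in white. Scaled to column totals its parts overlapped, with red replicate 2 and white replicate 2 both at 28.2 CPM, and its log2 fold change of -0.83 ± 0.39 SE did not pass (edgeR adjusted p = 0.44). Neither miR164, a repressor of NAC genes at organ boundaries, nor miR394, a repressor of an F-box gene of the meristem, passed, at -0.65 ± 0.21 and -0.84 ± 0.28 SE on the log2 scale, with adjusted p-values of 0.17 and 0.21 by edgeR.

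The other members of the list did not pass or were not tested in the fit without the block. miR156, which targets SPL genes of the age pathway, lay at 0.18 ± 0.32 SE on the log2 scale, with an adjusted p of 0.87 by edgeR. miR167 and miR160, which target auxin response factors, lay at 0.53 ± 0.34 and 0.0081 ± 0.35 SE, with adjusted p-values of 0.60 and 0.99 by edgeR; with the block miR167 passed as higher (edgeR adjusted p = 0.014). miR165, near-identical to miR166 and able to share its reads, stood at 18 to 43 reads per library, and miR172, which targets AP2-like genes of flower development, at 6 to 27. Neither passed (edgeR adjusted p = 0.65 for miR165 and 0.51 for miR172). miR390, which starts the trans-acting siRNA pathway on TAS3, had at most 5 reads in a library and was not tested.

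**Figure D5:**
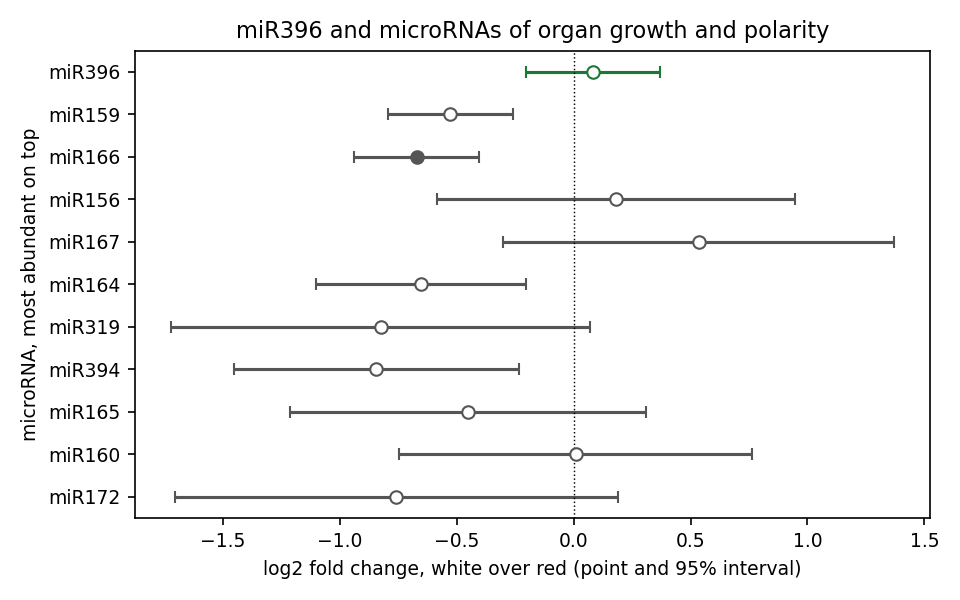
Log2 fold change of white over red with its 95% interval, TMM scaling, for miR396 and the 10 tested microRNAs of the organ growth and polarity list, ordered by abundance with the most abundant on top. A filled point marks an edgeR adjusted p under 0.05, which miR166 alone reaches in this fit, and the miR396 interval, from -0.21 to 0.37, spans 0.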

How the data were processed

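Petal small RNA was extracted with Trizol and made into libraries with a NEBNext kit, per the labels' protocols. The authors deposited whole-number counts of reads per Trinity contig or microRNA name, with no normalisation. Per the submitters' processing notes cutadapt and Bowtie2 were used; versions, settings, read lengths and the treatment of reads matching several rows are not given in the sources used here. Every row has a read in red replicate 1, so rows without one were not analysed here.

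White was compared with red by edgeR 4.0.16 (R 4.3.3): quasi-likelihood test, TMM, robust dispersion, filterByExpr with a minimum count of 10, Benjamini-Hochberg adjustment over 7001 rows at 0.05. The procedure was tested on simulated libraries drawn independently. That run held no effect of the replicate number, so it cannot speak for data that have one. SE is the log2 fold change over the square root of F, and intervals use its t quantile. SDs of log2 CPM used a pseudocount of 0.5, and likeness a prior count of 2. Shares carry exact (Clopper-Pearson) 95% intervals. DESeq2 1.42.0 was an alternative.

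Named rows were miR396, the 4 microRNAs next in mean share, the 3 most alike, and the growth list; miR647 and miR-27 were named after their values were seen. Members and lists were chosen with earlier results of these data known. Same-numbered libraries correlated in their deviations at 0.20, 0.29 and 0.20, above the limit of 0.1 for treating numbers as pairs. The labels do not say what a number marks. The main fit holds the petal part only and so goes against that limit, and the fit with the replicate block is given beside it. Chi-square tests of library pairs within a part gave at least 4.82 per degree of freedom, so none were duplicates.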

Additional observations from a re-analysis of the deposited data

How the results depend on the processing

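The log2 fold change of miR396, 0.081 with TMM, did not pass under any of the 14 alternatives run (adjusted p from 0.17 to 1.00). Its sign turned with library totals (-0.081), with the microRNA total less miR396, miR159 and miR166 (-0.018) and without red replicate 1 or white replicate 2 (each -0.013), and it ranged from -0.013 to 0.15 with 1 library left out. The replicate block gave 0.081 and changed no call of miR396. The 74 changed rows became 153 with library totals, 135 with the microRNA total, 254 with no filter, 338 with the replicate block, 305 with the microRNA total less miR396 and 124 with that total less miR159 and miR166 too, and 35 to 176 with 1 library left out. The cause was not tested. The miR396 share of microRNA reads, 37.8% in red and 45.3% in white, was 69.5% and 69.1% without miR159 and miR166, by construction of a smaller denominator, and 47.0% in white over plant families alone (38.6% in red); with 1 library left out it was 36.8% to 39.7% in red and 44.7% to 45.8% in white. Its share of all reads became 3.46% in red and 3.12% in white without the 3 most abundant contigs, and 1.93% in white (1.85% in red) without the rows called by edgeR, which turns the order of the means. Its ratio to all other microRNA reads, in place of miR159, was 0.611 in red and 0.828 in white. Its pooled SD of 0.105 was 0.164 with TMM. The depth of these libraries is not the limit for miR396, whose counting error is small against the spread of 3 libraries per part.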
